A study of Mus musculus with 4 samples.

Results

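Ependymal cells, the ciliated cells that line the ventricles and the central canal, made up 314 of the 39461 nuclei that passed quality control in the deposited annotation of the mouse posterior hindbrain. They were taken as the nuclei that the study annotated as ependymal, which it had placed in 2 clusters, cluster 37 with 185 nuclei and cluster 71 with 129 nuclei. Nuclei of the posterior hindbrain, a block that holds the area postrema and the nucleus of the solitary tract, were profiled with the 10x Genomics 3′ assay in 4 libraries, 2 of each group. The treated group, AgRP-Gq;POMC-Gi, carried AgRP-IRES-Cre+/-, hM3DGq fl/-, POMC-Dre+/- and hM4DGi fl/-, so that clozapine N-oxide (CNO) excites AgRP neurons through hM3DGq and silences POMC neurons through hM4DGi. Control mice, labelled WT, carried neither recombinase but, per the study's methods, were also heterozygous for hM3DGq fl/- and hM4DGi fl/-. Every mouse of both groups was 12 to 20 weeks old, received 3 mg per kg CNO and was killed 1 h later without food, and both sexes were used. Cre and Dre are driven from *Agrp* and *Pomc*, genes of neurons, so neither receptor was directed to ependymal cells. Material of 2 mice per group was pooled and nothing in the labels says how mice and libraries correspond, so each p-value measures only the spread between libraries.

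Ependymal cells beat motile cilia that move cerebrospinal fluid. The core of such a cilium, the axoneme, consists of doublet microtubules around a central pair, with dynein arms as motors, radial spokes and nexin-dynein links as regulators of the motors, and proteins inside the doublets as scaffold. The transcription factors FOXJ1 and RFX switch on the genes of this machinery in multiciliated cells. Around the central canal and the hindbrain ventricle, ependymal cells border on tanycytes and astrocytes, and the choroid plexus epithelium is a specialised relative of the same lining.

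The libraries gave 76 and 64 ependymal nuclei in control 1 and 2, and 90 and 84 in AgRP-Gq;POMC-Gi 1 and 2, the order used for values by library throughout. Their unique molecular identifiers (UMIs), counts of captured RNA molecules, summed to 256232, 200914, 242762 and 230077. The median nucleus had 2720.5 UMIs and 1627 detected genes, against a median of 8704 UMIs in neurons, and 1.68% of UMIs were mitochondrial, against 0.198% in astrocytes. Levels are given as CPM, UMIs of a gene scaled to a common total of the same nuclei, as mean ± SD over the 4 libraries unless said otherwise; CPM is not scaled to gene length, so levels are compared between cells and not between genes. No ependymal barcode was shared between libraries.

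Libraries stood apart in 2 genes that differ between animals or dissections. *Ttr*, the transthyretin gene of choroid plexus, had 2, 778, 6 and 480 UMIs in ependymal nuclei; both replicate 2 libraries were high, in ependymal nuclei as in the other types examined, and these libraries held 436 and 329 choroid plexus nuclei against 2 and 6 in the others. *Xist*, the RNA that coats the silenced X chromosome in female cells, gave 155, 57, 158 and 0 UMIs. It was absent from ependymal nuclei of AgRP-Gq;POMC-Gi 2 and at 16.2 to 48.2 CPM in the astrocytes, neurons and oligodendrocytes of that library, against 319 CPM or more in those types of the other libraries. Sex composition therefore cannot be told apart from the other differences of that library.

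The ependymal markers examined here were high in the annotated nuclei. The nuclei were clustered and named from these same counts, so these levels describe the annotated cells and are no independent check of the name. *Foxj1*, the master regulator of motile ciliogenesis, had 34, 61, 64 and 38 UMIs and a level of 216 ± 80.6 CPM, 5.07 times that of the next type, choroid plexus. Choroid plexus was at 0, 57.1, 39.8 and 73.6 CPM, from 2, 436, 6 and 329 nuclei, and each library counted equally in its mean. Ratios to choroid plexus below, and counts of genes highest in ependymal nuclei, carry that limit. *Foxj1* was found in 41.1% of ependymal nuclei and 2.93% of neurons, and in 15.3% and 0.239% once each nucleus was thinned to 800 UMIs. *Dnah12*, a heavy chain of the inner dynein arm, had 488, 342, 443 and 407 UMIs and a level of 1800.1 ± 85.8 CPM, 8.85 times the next type, *Ms4a4b* immune cells. It was found in 93.3% of ependymal nuclei and 1.23% of neurons, or 68.8% and 0.104% after thinning. All 9 ependymal markers examined, which also included *Ccdc153*, *Tmem212*, *Cfap126*, *Rsph1*, *Tekt1*, *Dnah9* and *Hydin*, had their highest level in ependymal nuclei, and their summed level was even across libraries at 6088, 6072, 5841 and 5881 CPM.

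Markers of neighbouring cells were low but not absent. The tanycyte markers *Rax* and *Crym* had no UMI in ependymal nuclei, and the 7 tanycyte markers summed to 139 to 304 CPM against 375 to 779 CPM in tanycyte-like nuclei. The 6 astrocyte markers summed to 2357, 1473, 1528 and 1547 CPM, against 16178 to 18057 CPM in astrocytes. The 5 neuron markers summed to 430.3 to 806 CPM, the 5 oligodendrocyte markers to 478 to 1219 CPM with the highest value in control 2, and the 4 microglia markers to 226 to 339 CPM. Markers of precursors, endothelium, mural cells and fibroblasts summed to between 0 and 148 CPM. The 6 choroid plexus markers followed *Ttr*, at 168, 4007, 152 and 2178 CPM.

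The genes with the highest ratio over other types were mostly not among the ependymal markers examined above, *Tmem212* apart. Because the clusters were built from these nuclei, their leading genes are a description and carry no test. Among the 1751 genes detected in 25% or more of ependymal nuclei, the zinc finger gene *Zfp474* had the highest ratio to the next type. It had 59, 39, 68 and 58 UMIs, at 239 ± 36.3 CPM and 502 times the next type. *Lrrc43*, which encodes a leucine-rich repeat protein (GRCm38 chr5:123489305-123508205), had 44, 53, 52 and 52 UMIs, at 219 ± 37.9 CPM and 314 times the next type.

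Several genes combined a high level with near absence elsewhere. *Rgs22*, of the regulators of G protein signalling, had 290, 195, 260 and 248 UMIs, at 1063 ± 67.2 CPM and 182 times the next type, neurons. *Wdr49*, a WD repeat gene, had 295, 191, 276 and 270 UMIs, at 1103 ± 103 CPM and 112 times the next type. *Tmem212*, a transmembrane protein gene (chr3:27866066-27896368), had 281, 230, 263 and 245 UMIs, at 1097 ± 34.2 CPM and 155 times the next type. In each of these the 4 libraries lay close together, whereas every other type was at 9.85 CPM or less. *Cdhr3*, a cadherin-related receptor of ciliated epithelia (chr12:33033796-33092875), reached 528 ± 51.9 CPM with 127, 120, 117 and 124 UMIs, 83.4 times the next type, tanycyte-like nuclei.

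The others of the leading 15 were *Frmpd2* (407 CPM), *Ect2l* (291 CPM), *Fam216b* (421 CPM), *Ttc29* (409 CPM), *1700012B09Rik* (122 CPM), *Vmn2r30* (162 CPM) and the unnamed transcripts *Gm10714*, *Gm4681* and *Gm19301*, with ratios between 61.4 and 217. *Vmn2r30* belongs to a large family of near-identical vomeronasal receptor genes, so its reads could come from relatives. *Gm19301* (chr14:78070717-78090786) overlaps *Fam216b* (chr14:78081021-78089007), and UMIs of the 2 genes may not be separable.

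**Figure D1:**
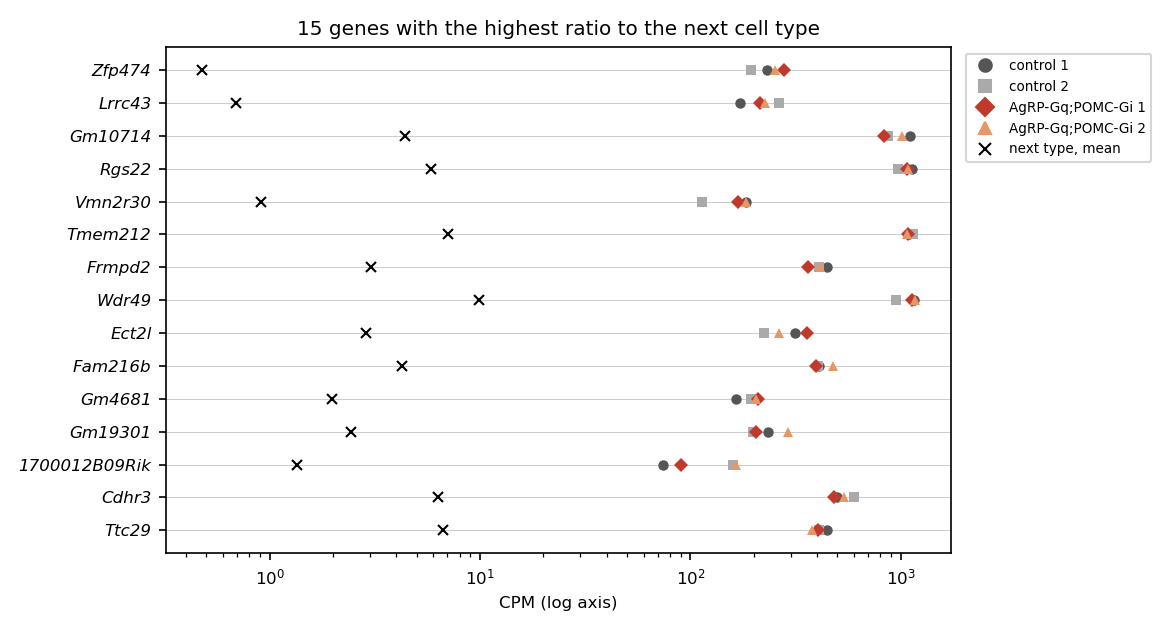
Level of the 15 genes with the highest ratio of ependymal cells to the next cell type, as CPM on a log axis, with 1 symbol per library and a cross for the mean of the next type. For every gene the 4 libraries cluster together to the right of the cross, by 61.4 times for *Ttc29* up to 502 times for *Zfp474*.

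Nearly the whole axoneme was expressed at its highest level in ependymal nuclei. Of 101 axoneme genes with a UMI in any cell type, 95 had their highest mean level of the 14 annotated types in ependymal nuclei, against 2805 of all 28290 genes with a UMI (9.92%). The median ratio to the next type was 4.01 over these genes and 0.163 over all genes. This count describes the annotated cells, since the cells were clustered on these same counts.

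Dynein arms, the motors, had 19 of 21 members highest in ependymal nuclei. *Dnah6*, an inner arm heavy chain, had 322, 260, 305 and 298 UMIs, at 1276 ± 22.0 CPM. *Dnah9*, an outer arm heavy chain, was at 1066 ± 106 CPM, and *Dnah11*, another outer arm heavy chain, at 966 ± 151 CPM. These levels were 3.68, 4.47 and 6.55 times those of choroid plexus, the next type for each. The exceptions were *Dnah8*, with no UMI in ependymal nuclei, and *Dnah17*, with 3 UMIs (2, 0, 1 and 0), both of which are known as sperm flagellum dyneins. Reads of *Dnah7a*, *Dnah7b* and *Dnah7c* may be split among these near-identical copies.

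All 15 detected genes of dynein arm assembly and docking, of 16 examined, were highest in ependymal nuclei. *Armc4*, a docking component, was at 689 ± 62.5 CPM, 14.8 times the next type. The assembly factor *Dnaaf3* was at 436 ± 47.9 CPM (124, 79, 114 and 91 UMIs), and *Lrrc6*, another assembly factor, at 324 ± 61.8 CPM. Levels of this group ranged widely, since *Dnaaf1* had only 8, 2, 6 and 6 UMIs and *Ccdc103* 2, 2, 1 and 3.

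The central apparatus, which organises the beat, had 18 of 18 members highest in ependymal nuclei. *Hydin*, whose loss causes hydrocephalus in mice, had 240, 177, 189 and 222 UMIs, at 890.3 ± 82.2 CPM and 20.2 times choroid plexus. *Spag17* was at 909 ± 96.4 CPM, 49.0 times tanycyte-like nuclei. *Spag16* had the smallest contrast of these 3, at 2103 ± 247 CPM against 1058 CPM in choroid plexus. *Cfap54*, at 1302 ± 56.3 CPM, and *Spef2*, at 1238 ± 149.5 CPM, belong to projections of the central pair.

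Radial spokes and nexin-dynein links had 24 of 26 members highest in ependymal nuclei. The spoke head genes *Rsph1* and *Rsph4a* were at 214 ± 40.3 and 199.8 ± 22.8 CPM, 8.17 and 4.70 times choroid plexus. *Drc1*, the base of the nexin-dynein link, was at 305 ± 73.0 CPM. Its partner *Drc7* was 1 of the 2 exceptions, at 266 ± 21.1 CPM in ependymal nuclei and 333 CPM in choroid plexus, and *Rsph3a* was the other, at 23.1 ± 11.1 CPM against 25.6 CPM in neurons. Of the proteins inside the doublets and the tektins, 19 of 21 were highest in ependymal nuclei, among them *Cfap43* (961 ± 105 CPM), *Cfap44* (1111 ± 143 CPM), *Enkur* (672 ± 54.3 CPM, 9.54 times tanycyte-like nuclei) and *Tekt1* (204 ± 42.7 CPM). *Tekt2* and *Nme7* were not, and *Tekt2* had only 5 UMIs in all.

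**Figure D2:**
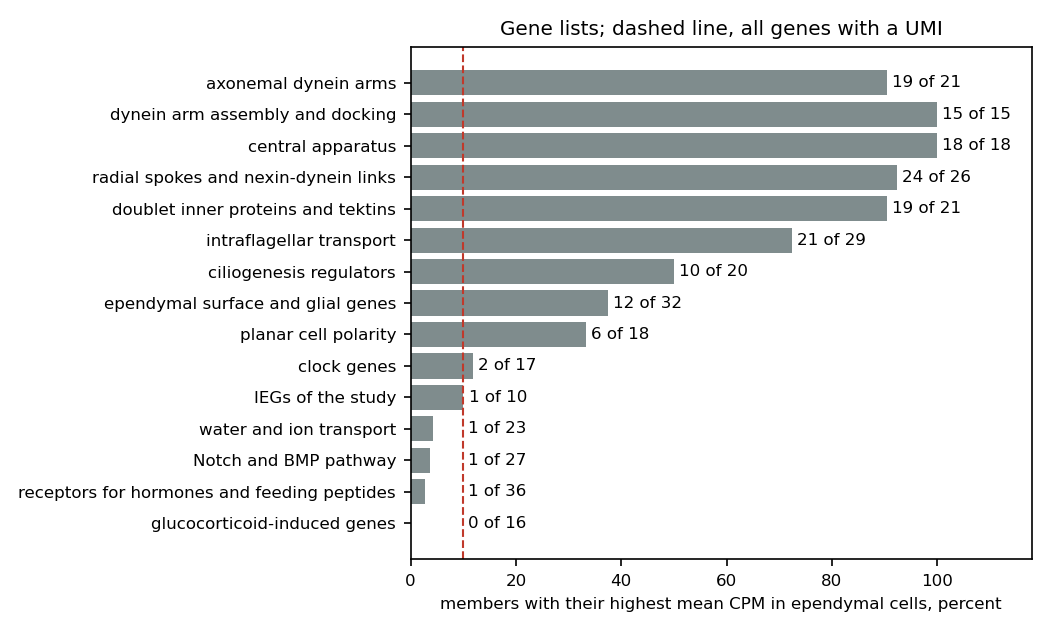
Share of the members of each gene list, in percent, whose highest mean CPM among 14 cell types lay in ependymal cells, with the count beside each bar. The dashed line is the share over all genes with a UMI, 9.92%; the 5 axoneme lists reach 90.5 to 100% and the transport, receptor and Notch lists lie under the line.

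Summed over these lists, axoneme genes held 3.76% of all ependymal UMIs. Per nucleus, the median share was 4.04%, and the 5th and 95th percentiles were 1.29% and 5.46%. Choroid plexus nuclei came next with a median of 1.11% (0.498% to 1.69%), and 233 of 773 of them reached the ependymal 5th percentile. Tanycyte-like nuclei had a median of 0.217%, astrocytes 0.0866% and neurons 0.107%, and 5 of 202, 1 of 4378 and 0 of 12539 of them reached that percentile. Medians by library were 4.16%, 3.67%, 3.88% and 4.16%, so the medians differed little between libraries or groups. The low end differed more, with 5th percentiles of 1.39%, 0.679%, 1.62% and 2.22%, and 84.4% of control 2 nuclei against 96.1% to 100% of the other libraries at or above 1.29%.

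A minority of the annotated nuclei had little axoneme RNA. There were 27 ependymal nuclei under the 95th percentile of choroid plexus, 20 of them in cluster 37 and 7 in cluster 71. Pooled, these 27 had 2427 CPM of neuron markers against 391 CPM in the other 287, and 2747 against 541 CPM of oligodendrocyte markers. Their ependymal markers were at 1684 CPM against 6467 CPM. The part of RNA from other cells in these nuclei was not tested.

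**Figure D3:**
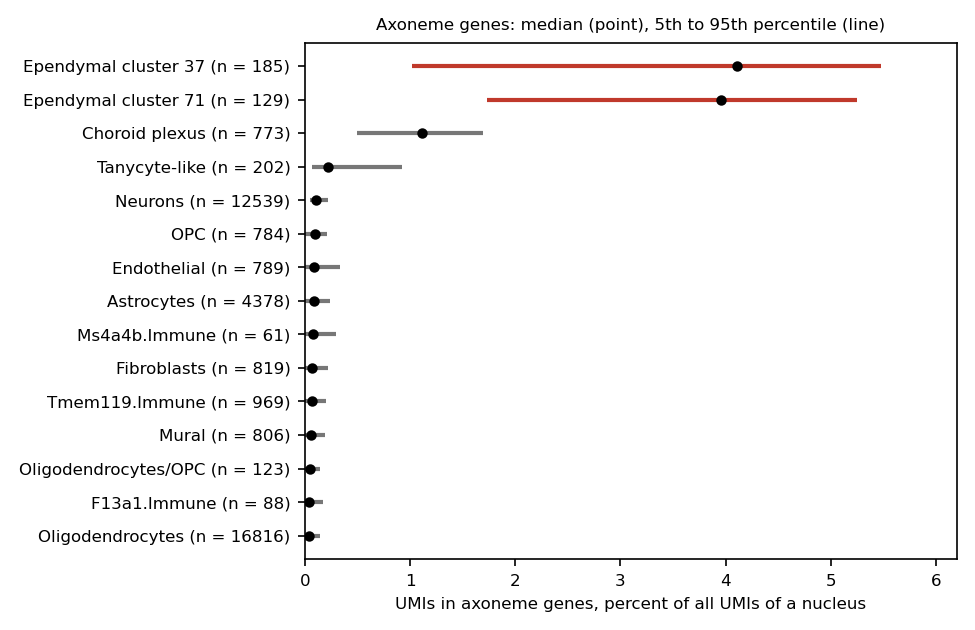
Share of the UMIs of a nucleus that fell in axoneme genes, in percent, for the 2 ependymal clusters and the 13 other annotated cell types; points are medians over nuclei and lines run from the 5th to the 95th percentile. Clusters 37 and 71 lie at 4.11% and 3.96%, choroid plexus at 1.11%, and all other types at or under 0.217%.

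Regulators of ciliogenesis gave a mixed picture, with 10 of 20 highest in ependymal nuclei. *Rfx2* was at 218 ± 16.6 CPM (51, 47, 51 and 53 UMIs), 2.49 times choroid plexus, and *Rfx3* at 1097 ± 46.3 CPM, only 1.11 times choroid plexus. *Ulk4*, a pseudokinase needed for ependymal cilia, was at 434 ± 78.0 CPM, 4.23 times choroid plexus. *Myb*, at 72.8 ± 25.9 CPM, and *Trp73*, at 79.9 ± 20.7 CPM, are early activators of the multiciliated programme.

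Some genes of centriole amplification, the step that precedes cilium growth, were scarce. *Mcidas*, which starts that programme, had no UMI in ependymal nuclei, *Ccno* had 1, 0, 1 and 0, and *Deup1*, the scaffold of deuterosomes, had 6, 3, 3 and 4. *Ccdc78*, of the same step, was not scarce, with 35, 30, 15 and 19 UMIs at 108 ± 42.1 CPM. *Gmnc*, the relative of *Mcidas*, was at 49.4 ± 8.84 CPM in ependymal nuclei against 1701 CPM in choroid plexus. *Rfx4* was lower than in tanycyte-like nuclei, at 322 ± 145 against 516 CPM.

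Intraflagellar transport, which carries cargo in motile and primary cilia alike, had 21 of 29 members highest in ependymal nuclei with a median ratio of 1.49, smaller than for the axoneme. *Ift88* was at 382 ± 45.7 CPM, 4.71 times neurons, and *Dync2h1*, the motor of retrograde transport, at 439 ± 39.3 CPM, 1.92 times choroid plexus. Planar cell polarity genes, which align cilia across a sheet of cells, had 6 of 18 highest in ependymal nuclei. *Celsr1* was at 134 ± 10.6 CPM, 3.08 times tanycyte-like nuclei, and *Fzd3* at 285 ± 48.0 CPM, 1.13 times tanycyte-like nuclei. *Celsr2* and *Celsr3* were not among them, at 33.3 and 4.18 CPM.

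Since axoneme genes were high together, their promoters were read for the motifs of the RFX and forkhead factors. RefSeq promoters on GRCm38.p6, from 250 bases before to 50 bases after each start site, matched 82 of the 102 axoneme genes and gave 90 promoters. Both strands were searched for GTTGCCA, the half-site of RFX factors, and for TGTTTAC, a core of forkhead sites, which share no overlap as written. GTTGCCA was found in 24 of 90 axoneme promoters (26.7%) and 6 of 24 promoters of intraflagellar transport genes (25.0%), and in 1439 of all 32851 promoters (4.38%). By group it was found in 2 of 19 promoters of dynein arms, 5 of 10 of their assembly and docking, 3 of 16 of the central apparatus, 6 of 21 of radial spokes and nexin-dynein links, and 8 of 24 of doublet inner proteins and tektins. TGTTTAC was found in 4 of 90 axoneme promoters (4.44%) and 1199 of all promoters (3.65%).

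The following windows show the RFX half-site in capitals, read 5′ to 3′ on the strand that carries it, in the 8 axoneme promoters with a match whose genes had the highest CPM; they were chosen after the matches were seen. *Cfap44*, *Hydin*, *Iqca* and *Drc1* are read on the minus strand and the others on the plus strand.
Cfap44, chr16:44394649-44394695, 123 bases before the start site: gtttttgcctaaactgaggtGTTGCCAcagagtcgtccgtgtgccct
Hydin, chr8:110266943-110266989, 7 bases before the start site: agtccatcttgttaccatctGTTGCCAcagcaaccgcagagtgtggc
Dnah7b, chr1:46066670-46066716, 156 bases before the start site: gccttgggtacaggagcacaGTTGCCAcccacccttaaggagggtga
Cfap74, chr4:155409183-155409229, 30 bases before the start site: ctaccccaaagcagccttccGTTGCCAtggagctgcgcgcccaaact
Dnah10, chr5:124725075-124725121, 10 bases after the start site: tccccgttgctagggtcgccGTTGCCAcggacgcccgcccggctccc
Iqca, chr1:90153510-90153556, 93 bases before the start site: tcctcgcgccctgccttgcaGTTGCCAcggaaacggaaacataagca
Pifo, chr3:106001484-106001530, 6 bases before the start site: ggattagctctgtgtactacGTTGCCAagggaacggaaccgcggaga
Drc1, chr5:30281361-30281407, 5 bases before the start site: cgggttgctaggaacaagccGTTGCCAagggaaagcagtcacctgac

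A full RFX site pairs the half-site with its inverted copy. The pair GTTNCC and GGNAAC, spaced by 1 to 3 bases, was found in 4 of 90 axoneme promoters (4.44%), those of *Iqca*, *Pifo*, *Ccdc151* and *Cfap298*, in 2 of 24 promoters of intraflagellar transport genes (8.33%) and in 255 of all 32851 promoters (0.776%). The windows of *Iqca* and *Pifo* hold this pair. These matches describe letters in a window and were not tested as sites.

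Of the 15 leading genes, 10 had a promoter in the table. *Cdhr3* was the 1 with the RFX half-site, here printed on the gene's own strand, where it reads as its reverse complement in capitals, 7 bases before the start site.
Cdhr3 promoter, chr12:33092826-33093125, minus strand: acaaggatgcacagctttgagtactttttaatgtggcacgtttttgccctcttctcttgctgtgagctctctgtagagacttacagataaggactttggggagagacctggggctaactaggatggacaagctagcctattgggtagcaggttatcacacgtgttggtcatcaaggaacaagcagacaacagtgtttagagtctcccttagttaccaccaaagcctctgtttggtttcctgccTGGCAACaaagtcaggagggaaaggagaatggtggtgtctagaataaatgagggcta

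Genes of the ependymal surface and of glia were shared more widely, with 12 of 32 highest in ependymal nuclei. *Clu*, the clusterin gene, was at 561 ± 147 CPM, *Rarres2*, which encodes the chemoattractant chemerin, at 294 ± 93.1 CPM, and *Mia* at 256 ± 56.1 CPM. Their ratios to the next type were 1.88, 2.19 and 2.04. The glial transcription factor *Sox9* was at 204 ± 16.2 CPM (48, 39, 52 and 51 UMIs), 1.62 times tanycyte-like nuclei. The intermediate filament *Vim*, at 198 ± 35.5 CPM, was at the level of tanycyte-like nuclei, 198 CPM, and was under endothelial cells at 218 CPM, and *Nes*, a filament of progenitors, had 3, 1, 8 and 1 UMIs.

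Water and ion transport was mostly higher elsewhere, with 1 of 23 members highest in ependymal nuclei, *Kcnj16* at 91.4 ± 19.7 CPM against 87.8 CPM in astrocytes. *Aqp4*, the water channel of glia and ependyma, was at 319 ± 67.4 CPM (101, 65, 80 and 53 UMIs) against 390.2 CPM in astrocytes. *Slc4a4*, a bicarbonate transporter, was at 582 ± 176 CPM against 3689 CPM, and *Slc12a2*, the cotransporter of choroid plexus, had 13, 25, 18 and 8 UMIs and was at 822 CPM in that epithelium.

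Receptors for hormones and feeding peptides had 1 of 36 highest in ependymal nuclei, *Npy2r*, with 10 UMIs in all. *Fgfr2* (720.3 ± 135 CPM) and *Igf1r* (246 ± 23.3 CPM) were both under the level of another type. *Insr* had 32, 23, 17 and 34 UMIs, whereas *Lepr*, the leptin receptor, and *Glp1r*, the receptor of glucagon-like peptide 1, had 1 UMI each. Notch and BMP genes had 1 of 27 highest in ependymal nuclei, the Notch coactivator *Maml2* at 1204 ± 88.0 CPM against 983 CPM in oligodendrocyte precursors. Clock genes had 2 of 17, *Cry2* at 104 ± 23.6 CPM and *Cry1* at 33.3 ± 6.35 CPM, and glucocorticoid-induced genes 0 of 16.

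Clusters 37 and 71 had much the same share of axoneme RNA and differed in genes of dorsal patterning and of water and ion transport. The clusters were cut from these counts, so their differences are described without a test. *Foxj1* was at 234 ± 97.0 CPM in cluster 37 and 177 ± 44.1 CPM in cluster 71, *Dnah12* at 1824 ± 29.9 and 1764 ± 336 CPM, and *Rfx3* at 1067 ± 39.4 and 1139 ± 49.4 CPM, each overlapping between clusters. Of the 100 axoneme genes with a UMI in ependymal nuclei, 13 were higher in cluster 37 in all 4 libraries and 6 in cluster 71, against 1464 (7.92%) and 822 (4.45%) of 18476 genes. Median UMIs per nucleus were 2892 and 2484, and median mitochondrial shares 2.12% and 1.15%.

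*Cdhr4*, a cadherin-related gene, was the leading gene of cluster 37. It had 56, 44, 60 and 38 UMIs in cluster 37 and none in cluster 71 of any library, at least 37.8-fold higher against a floor of 3 UMIs over the cluster. UMIs of it occurred in 50.3% of cluster 37 nuclei, in 0.128% of neurons and in 0 of 129 nuclei of cluster 71, which allows a share of up to 2.33%, a limit for counting error alone over nuclei pooled from 4 libraries. *Pax3*, a transcription factor of the dorsal neural tube, had 20, 13, 19 and 15 UMIs in cluster 37 and none in cluster 71, at least 12.8-fold higher. *Lbp*, which encodes lipopolysaccharide-binding protein, had 12, 19, 13 and 8 UMIs and none, at least 9.92-fold higher.

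Other dorsal genes went the same way. *Zic1* had 13, 15, 16 and 11 UMIs in cluster 37 and 0, 0, 0 and 2 in cluster 71, and *Zic4* 25, 23, 20 and 17 against 1 in each library. Of the 10 dorsal patterning genes with a UMI in ependymal nuclei, 6 were higher in cluster 37 in all 4 libraries and 0 in cluster 71. Over all genes with a UMI in ependymal nuclei the shares were 7.92% and 4.45%. The dorsal list summed to 399.7, 508, 483 and 636 CPM in cluster 37 against 13.1, 78.1, 48.0 and 39.1 CPM in cluster 71. *Pax6*, of the intermediate and ventral neural tube, was higher in cluster 71, with 13, 7, 9 and 14 UMIs at 131 ± 29.5 CPM against 5, 4, 8 and 4 UMIs at 35.9 ± 11.0 CPM. Of 15 ventral and intermediate genes, *Pax6*, *Nkx6-1* and *Ntn1* were higher in cluster 71 and *Nkx2-2*, with 1 UMI per library, and *Spon1* in cluster 37. Those shares were 20.0% and 13.3%, against 4.45% and 7.92% over all genes. These patterning lists were drawn up after values of the clusters had been seen.

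Several ciliary and transport genes were also higher in cluster 37. *Sntn*, which encodes sentan of the ciliary tip, had 32, 34, 19 and 14 UMIs against 1, 1, 0 and 0, and *Ccdc78* 33, 30, 15 and 17 against 2, 0, 0 and 2. *Dnah3*, an inner arm dynein, had 131, 80, 108 and 80 UMIs against 7, 3, 8 and 13, at 680.5 ± 107 and 87.1 ± 19.4 CPM. *Dnah3* was thus the dynein that differed most, 7.37 times higher over pooled UMIs, while *Dnah12* was level. The 95% interval of this ratio, 5.11 to 11.0, covers counting error alone over UMIs pooled from all libraries. It is no test, since the clusters were cut from these counts and *Dnah3* was picked for its difference. *Aqp4* was at 456 ± 56.9 against 78.3 ± 29.7 CPM, *Bmp6* had 23, 20, 28 and 11 UMIs against 0, 3, 0 and 2, and the glucose transporter *Slc2a1* was at 239 ± 62.7 against 84.8 ± 40.2 CPM. Of 22 detected water and ion transport genes, 7 (31.8%) were higher in cluster 37 in every library and 0 in cluster 71. Over all genes with a UMI in ependymal nuclei the shares were 7.92% and 4.45%.

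In cluster 71 the leading gene was *Lin7a*, which encodes a scaffold protein of cell polarity. It had 98, 30, 62 and 155 UMIs in cluster 71 and 4, 1, 4 and 1 in cluster 37, at 957 ± 345 and 15.9 ± 9.07 CPM. *Dner*, a transmembrane ligand of Notch, had 55, 19, 73 and 91 UMIs against 15, 12, 8 and 12, *Adamtsl1*, a secreted matrix protein gene, 34, 24, 61 and 83 against 13, 12, 13 and 5, and the apical polarity gene *Crb1* 21, 6, 11 and 19 against 2, 2, 0 and 7. *Col23a1*, which is among the tanycyte markers used here, was at 275 ± 103 against 54.1 ± 26.3 CPM, and *Sox2* at 171 ± 57.7 against 72.1 ± 28.3 CPM. No library overlapped between the clusters in these genes. The other tanycyte markers were not higher in cluster 71 in all 4 libraries. As a list, the tanycyte markers summed to 276, 215, 480.2 and 328 CPM in cluster 71. In cluster 37 they summed to 316, 114, 69.0 and 127 CPM, so the clusters overlapped. *Cdh12*, *Rasgrf2*, *Rcan2*, *Nr4a3*, *Epb41l4b* and *Rgcc* completed the leading 10, with ratios of 5.16 to 16.0.

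**Figure D4:**
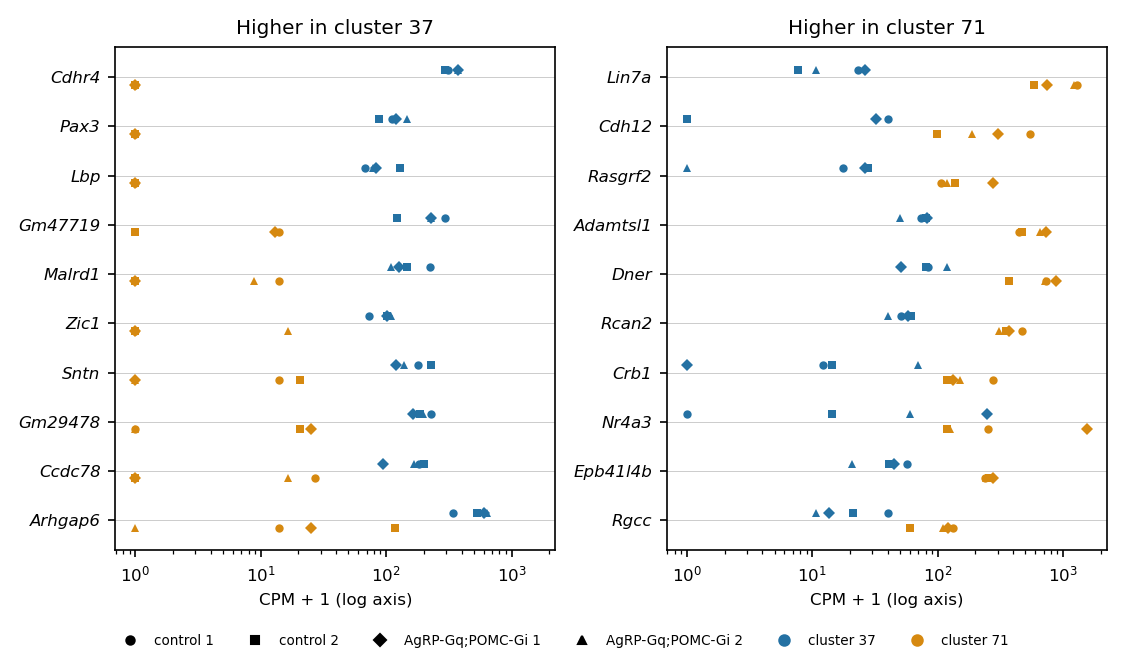
Level of the 10 leading genes of cluster 37 and of cluster 71, as CPM + 1 on a log axis, with 1 symbol per library and 1 colour per cluster. *Cdhr4*, *Pax3* and *Lbp* lie at 0 CPM in all 4 libraries of cluster 71, and *Lin7a* averages 957 CPM in cluster 71 and 15.9 CPM in cluster 37.

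To ask whether the manipulation changed the number of ependymal nuclei, their share was compared between libraries. It was 0.781% (exact 95% interval 0.616 to 0.977), 0.637% (0.491 to 0.812), 0.926% (0.745 to 1.14) and 0.843% (0.673 to 1.04) of nuclei, with intervals that cover counting error only. Both AgRP-Gq;POMC-Gi libraries lay above both control libraries, with means of 0.884 ± 0.0583% and 0.709 ± 0.102% (SD, n = 2), and intervals of neighbouring libraries overlapped. The exact permutation test, two-sided, gave p = 0.333, the smallest value that 2 against 2 libraries can give. Cluster 71 made up 32.9%, 26.6%, 38.9% and 61.9% of ependymal nuclei, with the same p of 0.333 in the exact test of 29.7 ± 4.48% against 50.4 ± 16.3% (SD, n = 2). The mean of AgRP-Gq;POMC-Gi rested on replicate 2; without it the difference of 20.67 percentage points was 9.16, and without replicate 1 it was 32.18.

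No gene passed an adjusted p of 0.05 between groups in ependymal cells as a whole in the main fit, which modelled group alone. edgeR's quasi-likelihood test called 0 of 8632 genes (0%) after Benjamini-Hochberg adjustment, and DESeq2 also called 0. At an unadjusted p under 0.05 there were 347 genes with edgeR, 156 higher (1.81%) and 191 lower (2.21%) in AgRP-Gq;POMC-Gi, and 51 with DESeq2. The genes below are those with the smallest p whose groups did not overlap, given as values. None of them is a call in this fit. With the replicate number as a block, 13 genes were called, among them *Nr4a3*, *Lhfpl3*, *Btg2*, *Plcb1* and *Zbtb16*.

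Among genes with lower values in AgRP-Gq;POMC-Gi, *Zbtb16*, a transcription factor induced by glucocorticoids, had 21, 18, 3 and 2 UMIs, a log2 difference of -2.91 ± 0.57 (SE; adjusted p = 0.598). *Plcb1*, a phospholipase C that acts downstream of Gq-coupled receptors, had 105, 49, 18 and 27 UMIs (-1.75 ± 0.35), and *Aldh1a1*, which makes retinoic acid, 35, 17, 5 and 6 (-2.20 ± 0.49). *Aldh1a1* was at 954 to 1317 CPM in astrocytes. Of 6 astrocyte markers, 5 had a log2 difference below 0 in ependymal nuclei, against 4412 of all 8632 genes, and 1 an unadjusted p under 0.05, *Slc1a2*, the glial glutamate transporter (-0.97 ± 0.31; unadjusted p = 0.00669, edgeR). Their summed level, given above, was highest in control 1 and lowest in control 2, so the groups overlapped. The part of astrocyte RNA in these differences was not tested. *Trpm3*, a cation channel, had 82, 64, 34 and 27 UMIs (-1.26 ± 0.29), of which 45 of the 82 in control 1 came from 1 nucleus. *Lhfpl3*, *Pcdh15*, *Ctnna3*, *Lrrtm3*, *Slc9a9* and *9630028H03Rik*, whose locus overlaps that of *Plcb1*, made up the 10.

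Among genes with higher values, *Fbxl7*, of the F-box proteins, had 9, 10, 32 and 35 UMIs (1.79 ± 0.40; adjusted p = 0.598). *Adamtsl1* had 47, 36, 74 and 88 UMIs (0.96 ± 0.27), and *Dcun1d2* 1, 3, 9 and 14 (2.44 ± 0.70). *Adamtsl1* was also a leading gene of cluster 71, whose share was highest in AgRP-Gq;POMC-Gi 2, and its difference was 0.54 with the clusters weighted equally, a setting added after seeing the data. *Btg2*, *Nr4a3*, *Kpna4*, *Emd*, *Klf4* and *Zfp36l1* were highest in AgRP-Gq;POMC-Gi 1 in each case, and *A230057D06Rik* completed the 10.

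Some immediate early genes (IEGs), which are transcribed within minutes of a stimulus, were high in 1 library. *Nr4a3*, an orphan nuclear receptor, had 19, 8, 168 and 22 UMIs (74.2, 39.8, 692 and 95.6 CPM), *Nr4a1* 1, 1, 42 and 0, *Fos* 2, 0, 22 and 1, *Junb* 0, 1, 20 and 0, and *Btg2* 6, 2, 47 and 12. In each, AgRP-Gq;POMC-Gi 1 stood far above the other 3 libraries, and AgRP-Gq;POMC-Gi 2 lay within or nearer the controls, with *Btg2* at 23.4, 9.95, 194 and 52.2 CPM. Of the 10 IEGs used in the study, 7 could be tested and 3 had an unadjusted p under 0.05, all higher in AgRP-Gq;POMC-Gi, against 1.81% of all genes. For *Nr4a3* the log2 difference was 2.81 ± 0.68 (adjusted p = 0.829), 0.72 without AgRP-Gq;POMC-Gi 1, and 3.63 without AgRP-Gq;POMC-Gi 2 (adjusted p = 0.000345, edgeR). In each of these fits 1 AgRP-Gq;POMC-Gi library was left and was assumed to vary like the 2 controls. *Jun* had 6, 10, 8 and 7 UMIs, *Homer1* 10, 4, 17 and 8, *Btg1* 4, 7, 11 and 12, *Fosl2* 0, 0, 2 and 3, *Gem* 1, 1, 1 and 0, and *1700016P03Rik* 15, 6, 20 and 12.

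The same library was the highest in several other types. A list of 26 early response genes, drawn up after some of their values had been seen, summed to 601, 518, 2426 and 804 CPM in ependymal nuclei and to 932, 999, 4104 and 1033 CPM in tanycyte-like nuclei. In astrocytes it summed to 222, 235, 453 and 301 CPM, with *Fos* at 4.11, 3.76, 37.6 and 7.61 CPM, *Egr1* at 1.52, 2.01, 25.4 and 5.07 CPM and *Junb* at 3.25, 2.51, 15.8 and 5.58 CPM. In neurons it summed to 132, 123, 120.4 and 155 CPM. AgRP-Gq;POMC-Gi 1 was also the highest library in oligodendrocyte precursors, mural cells, *Tmem119* and *F13a1* immune cells, oligodendrocytes and the mixed oligodendrocyte and precursor type, from 143 CPM in oligodendrocytes to 1329 CPM in *F13a1* immune cells, and not in endothelium, fibroblasts, *Ms4a4b* immune cells or neurons. Choroid plexus, with 2 and 6 nuclei in the replicate 1 libraries, was too thinly sampled to be ranked. Within ependymal cells both clusters took part, with 494, 501, 1580.4 and 607 CPM in cluster 37 and 854, 567, 4045 and 962 CPM in cluster 71. *Nr4a3* was found in 0 of 51, 2 of 47, 16 of 55 and 5 of 32 nuclei of cluster 37, and in 11 of 25, 4 of 17, 26 of 35 and 11 of 52 nuclei of cluster 71, where the share in AgRP-Gq;POMC-Gi 2 was under both controls. In AgRP-Gq;POMC-Gi 1, 3 nuclei held 20 of its 39 UMIs in cluster 37 and 3 held 50 of 129 in cluster 71. Over all ependymal nuclei these shares were 14.5%, 9.38%, 46.7% and 19.0%, close to the 15.4%, 11.5%, 56.7% and 16.9% of tanycyte-like nuclei, against 0.0923% to 1.73% of astrocytes, whose median depth was 3376 UMIs.

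**Figure D5:**
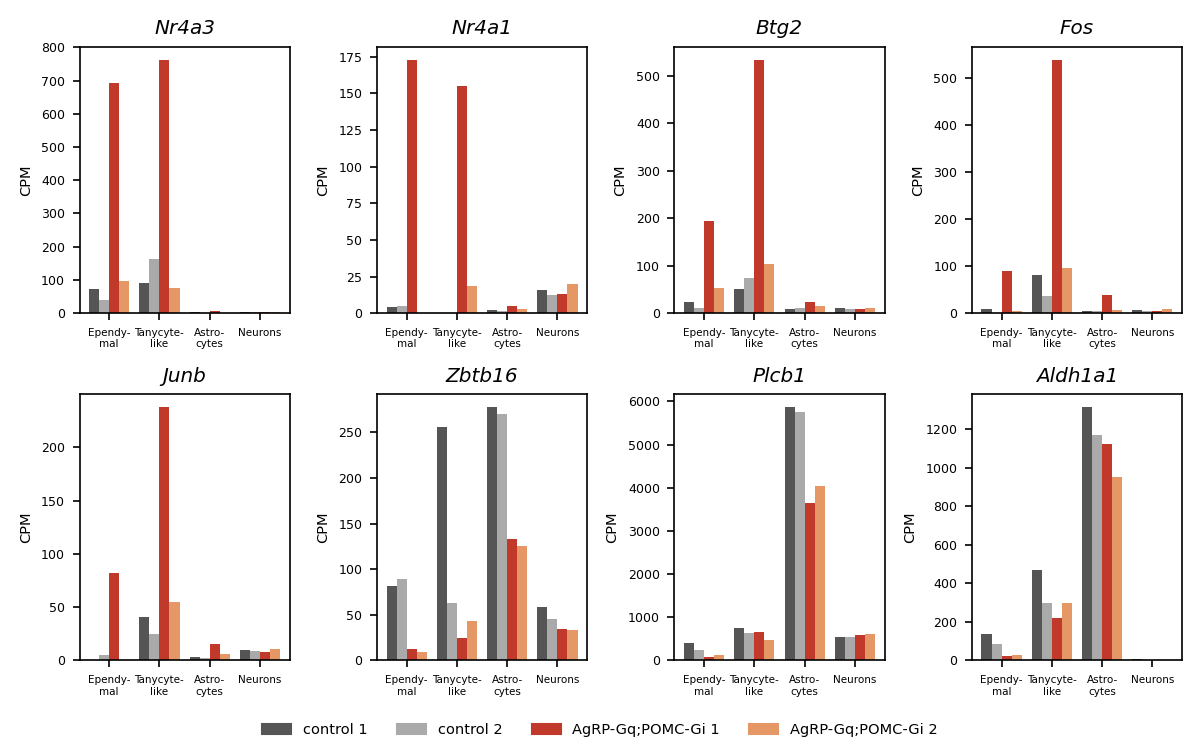
Level of 8 genes as CPM in ependymal cells, tanycyte-like cells, astrocytes and neurons, with 1 bar per library and a separate linear axis from 0 for each gene. *Nr4a3*, *Nr4a1*, *Btg2*, *Fos* and *Junb* are tallest in AgRP-Gq;POMC-Gi 1 in ependymal and tanycyte-like cells; *Zbtb16* is lower in both AgRP-Gq;POMC-Gi libraries in all 4 types.

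Glucocorticoid-induced genes were measured alongside. Of 10 tested, 2 had an unadjusted p under 0.05 and were lower in AgRP-Gq;POMC-Gi, *Zbtb16* and *Tsc22d3* (19, 22, 8 and 10 UMIs; log2 difference -1.20 ± 0.45), against 2.21% of all genes. *Fkbp5*, a chaperone of the glucocorticoid receptor, had 8, 13, 1 and 1 UMIs. The whole list summed to 1128, 1304, 1236 and 830.2 CPM in ependymal nuclei, where the groups overlapped. In oligodendrocytes it summed to 3058, 2782, 1875 and 1465 CPM, and in astrocytes to 2456, 2256, 1950.2 and 1342 CPM. Both controls lay above both AgRP-Gq;POMC-Gi libraries in these and the other types. Exceptions were tanycyte-like nuclei and the mixed oligodendrocyte and precursor type, where the groups overlapped. Choroid plexus, at 3569, 882, 676 and 613 CPM, had only 2 and 6 nuclei in the replicate 1 libraries and was too thinly sampled to be ranked. In astrocytes *Zbtb16* was at 278, 270.4, 133 and 126 CPM and *Fkbp5* at 275, 178, 24.5 and 28.9 CPM, with both controls above both AgRP-Gq;POMC-Gi libraries. In tanycyte-like nuclei *Zbtb16* was at 256, 62.5, 24.3 and 42.9 CPM, whereas *Fkbp5* overlapped between groups, with the lowest and the highest library, 48.6 and 76.7 CPM, both AgRP-Gq;POMC-Gi.

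Axoneme genes lay close to no difference between groups. Of 96 tested, 3 had an unadjusted p under 0.05 and were higher in AgRP-Gq;POMC-Gi (*Cfap47*, *Cfap300* and *Dnaaf5*) and 0 were lower, against 1.81% higher and 2.21% lower of all genes, with a median log2 difference of 0.03 against -0.01 over all genes. *Sntn* had 33, 35, 19 and 14 UMIs (-1.06 ± 0.37) and *Ccdc78* 35, 30, 15 and 19 (-0.94 ± 0.36). Both are leading genes of cluster 37, which held 51, 47, 55 and 32 nuclei, and within that cluster *Sntn* was at 178, 227, 119 and 137 CPM, with both controls above both AgRP-Gq;POMC-Gi libraries, and *Ccdc78* at 183, 200.4, 94.1 and 166 CPM, with AgRP-Gq;POMC-Gi 2 close to control 1. No member of the Notch and BMP, planar cell polarity, intraflagellar transport or clock lists had an unadjusted p under 0.05 in either direction.

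Within cluster 37, *Plcb1* was the 1 gene called of 8829 (0.0113%). It had 104, 42, 13 and 7 UMIs, or 577, 281, 81.5 and 68.5 CPM, and fell by 2.44 on the log2 scale (SE 0.42; adjusted p = 0.0459, edgeR). Both controls lay above both AgRP-Gq;POMC-Gi libraries, and 29 of the 104 UMIs of control 1 came from 1 nucleus. Few nuclei carried it, 15 of 51, 8 of 47, 8 of 55 and 6 of 32, and the share of nuclei with a UMI overlapped between groups. The difference was -1.79 without control 1 and -2.46 with DESeq2 (adjusted p = 0.462). With edgeR it was -2.47 under the gene filter filterByExpr (adjusted p = 0.0841) and -2.45 with the replicate number as a block (0.983). *Plcb1* was far higher in astrocytes, at 5872, 5759, 3637 and 4044 CPM, and astrocyte markers in cluster 37 were at 2665, 1423, 1348 and 1507 CPM; their part in the difference was not tested. *Nr4a3* came next, with 0, 2, 39 and 6 UMIs (adjusted p = 0.0681), and *Slc9a9*, an endosomal sodium-proton exchanger, had 10, 8, 0 and 0 UMIs, at least 4.76-fold lower.

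Within cluster 71, *Btg2* and *Ctnna3* were called of 7777 genes (0.0257%). *Btg2*, an antiproliferative gene of the early response, had 0, 0, 32 and 11 UMIs, at least 8.64-fold higher in AgRP-Gq;POMC-Gi (adjusted p = 0.0399, edgeR). Without AgRP-Gq;POMC-Gi 1 the adjusted p was 0.997, without normalisation by TMM factors 0.342, and with DESeq2 1.00. *Ctnna3*, a catenin of cell junctions, had 5, 51, 1 and 7 UMIs and fell by 3.61 on the log2 scale (SE 0.72; adjusted p = 0.0414). This rested on control 2, where 24 UMIs came from 1 nucleus and oligodendrocyte markers were at 1699.6 CPM against 571 to 852 CPM in the other libraries; *Ctnna3* was at 2363 to 2458 CPM in oligodendrocytes. Neuron markers were also highest in control 2, at 604, 1504, 468 and 453 CPM, and the part of RNA from other cells in the difference was not tested. Without control 2 the difference was -0.81 with an adjusted p of 0.964. *Rfx4* had 17, 10, 96 and 46 UMIs (1.88 ± 0.46; adjusted p = 0.497, edgeR), at 223, 195, 1152 and 359.7 CPM, and its difference was 0.82 without AgRP-Gq;POMC-Gi 1. The oestrogen receptor gene *Esr1* had 18, 7, 2 and 7 (-2.10 ± 0.63; adjusted p = 0.738).

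Whether the group effect in ependymal cells differed from that in neighbouring glia was tested as the interaction of cell type and group. Against astrocytes, 0 of 10049 genes were called (0%), and 436 had an unadjusted p under 0.05 with edgeR. DESeq2 likewise called 0 and had 109 at that level. Against tanycyte-like nuclei, of which the libraries held 26, 26, 67 and 83, 22 of 10061 genes were called (0.219%), 13 with the more positive and 9 with the more negative effect in ependymal cells. DESeq2 called 0 of these. The values that set them apart lay in ependymal nuclei for some and in tanycyte-like nuclei for others. *Alk*, a receptor tyrosine kinase, was at 19.5, 229, 12.4 and 21.7 CPM in ependymal nuclei, where control 2 stood apart, and at 1076, 887, 1423 and 1339.9 CPM in tanycyte-like nuclei. *Sat1*, of polyamine breakdown, was at 168, 184, 98.9 and 139 CPM in ependymal nuclei and at 113, 74.9, 349.7 and 285 CPM in tanycyte-like nuclei, where both AgRP-Gq;POMC-Gi libraries were higher. *Dnah9* was level in ependymal nuclei, at 312, 202, 239 and 243 UMIs, and scarce in tanycyte-like nuclei, at 10, 3, 0 and 2. None of the 10 IEGs was among the 22 genes, so a difference between the 2 cell types in the early response was not shown.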

How the data were processed

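Single-nucleus RNA-seq was performed on 4 libraries of posterior hindbrain. Per the study's methods and the submitters' processing notes, the authors sorted nuclei on a DNA dye, counted UMIs on GRCm38 with Cell Ranger 7.0.0, analysed them in Seurat 4.3.0, kept nuclei with at least 800 UMIs, 500 genes and at most 10% mitochondrial UMIs, and called doublets with scDblFinder. The deposited matrices hold raw UMI counts for 44303 barcodes, and the deposited table gives each barcode's cluster and cell type, its mitochondrial percent, and per-cluster IEG scores of the authors' own group comparison, which were not used. A joined matrix of the same libraries was not used here. No doublet caller was run again.

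UMIs were summed per library over ependymal nuclei, over each cluster, and over the other types. Groups were compared on these sums with edgeR 4.0.16 (quasi-likelihood test, TMM factors, R 4.3.3) over genes detected in 5% or more of the nuclei and with Benjamini-Hochberg adjustment; fold changes are AgRP-Gq;POMC-Gi over control. The study's mixed model over nuclei, nebula, which per the paper takes sample-level effects into account, was not run. Sums per library were used because nuclei of a library are not replicates. The difference between cell types was tested as the interaction of type and group with library as a term. Shares of nuclei were compared with a two-sided exact permutation test and given exact Clopper-Pearson 95% intervals, which cover counting error only. A fold against a cluster or group without a UMI is computed against 3 UMIs over the group.

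Named genes were *Foxj1*, *Dnah12*, *Xist* and the study's 10 IEGs, the 15 genes with the highest ratio to the next type among genes in at least 25% of ependymal nuclei, the 10 with the highest ratio in each direction between clusters among genes higher in all 4 libraries and in at least 20% of the nuclei of the higher cluster, called genes, and the 10 in each direction with the smallest p and groups that do not overlap, with members of the gene lists. Members, lists and these rules were chosen with earlier results of these data known. The lists of patterning, Hox and early response genes were added after values were seen; of 28 Hox genes with a UMI, 0 were highest in ependymal nuclei.

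Positions are from GENCODE M21, which held 32158 of 32285 genes by identifier and symbol; promoters are from RefSeq. Alternatives were Holm adjustment, library size without TMM, DESeq2 1.42.0, filterByExpr, no filter on genes, the replicate number as a block, each library left out, other denominators and thinning to 800 UMIs. The fits were tested on simulated data made from the mean levels of these libraries, with the same assumed spread for every gene. That spread, a dispersion of 0.05, was set and not estimated from these libraries, and no other difference between libraries was simulated. The recovered counts therefore hold for that setting and may be higher than the real libraries allow. Of 200 genes changed 2-fold, 0 were recovered in ependymal cells, 2 in cluster 37 and 1 in cluster 71. Of 200 changed 4-fold, 109, 77 and 40 were recovered there. The difference from tanycyte-like cells recovered 1 at 2-fold and 9 at 4-fold, and that from astrocytes 0 and 61. Sums and shares were obtained with Python (3.11.15) and its packages numpy (2.4.6), pandas (2.3.3) and scipy (1.17.1).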

Additional observations from a re-analysis of the deposited data

Results flagged for a closer look

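The difference of the group effect between ependymal and tanycyte-like cells was past the threshold for 22 genes by the interaction test of edgeR, and the 20 with the smallest p are given here as the log2 effect in ependymal cells minus that in tanycyte-like cells. More positive in ependymal cells were *Galntl6* (4.03), *Tenm1* (4.14), *Nxph1* (4.22), *March1* (3.15), *Lingo2* (2.28), *Htr2c* (4.60), *Tmeff2* (2.58), *Dpp10* (2.24), *Dnah9* (3.81), *Rnf220* (2.20), *Hbb-bs* (3.38) and *Nrg3* (1.94). More negative were *Lhfpl3* (-3.78), *Alk* (-3.13), *Gpc5* (-2.73), *9630028H03Rik* (-5.31), *Sat1* (-2.43), *Ror1* (-3.47), *4930488L21Rik* (-7.85) and *Rbfox1* (-2.03).

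Over the alternatives *Galntl6* ranged from 0.26 to 6.70, *Htr2c* from 1.17 to 8.04, *Alk* from -4.46 to -0.74 and *Lhfpl3* from -5.94 to -1.85. *Tmeff2* moved less, from 2.21 to 2.73, but its libraries were uneven in both types. It was at 61.5, 512, 92.3 and 24.5 CPM in tanycyte-like nuclei and at 39.0, 244, 329.5 and 78.2 CPM in ependymal nuclei. Single libraries stood out in several of the 20 genes. *Galntl6* had 39, 9, 23 and 33 UMIs in ependymal nuclei and 4, 82, 5 and 8 in tanycyte-like nuclei, where control 2 was highest. *Htr2c* had 94, 2, 0 and 2 UMIs in tanycyte-like nuclei, where control 1 was highest, and *Hbb-bs*, a haemoglobin gene, 3, 42, 6 and 4, where control 2 was highest. Control 2 was also the highest library of tanycyte-like nuclei for *Tenm1*, *March1*, *Lingo2*, *Nrg3* and *Rnf220*, with *March1* at 30.7, 487, 53.4 and 42.9 CPM. *Nxph1* had 5, 6, 57 and 5 UMIs in ependymal nuclei. *Sat1* and *Ror1* did not rest on 1 library in tanycyte-like nuclei, with *Sat1* at 113, 74.9, 349.7 and 285 CPM and *Ror1* at 146 and 190.1 CPM in AgRP-Gq;POMC-Gi against 51.2 CPM or less in the controls. Tanycyte-like nuclei numbered 26 in each control library against 67 and 83, so the depth behind these values differed between groups; its part in the differences was not tested.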

How the results depend on the processing

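In ependymal cells as a whole, 0 genes were called with Holm adjustment, without TMM, with DESeq2, with filterByExpr, without a filter on genes, and under 2 settings added after seeing the data (nuclei with at most 5% mitochondrial UMIs, and the clusters weighted equally). Leaving out a library gave 0 to 20 calls, with 20 without AgRP-Gq;POMC-Gi 1 (19 lower) and 9 without AgRP-Gq;POMC-Gi 2 (9 higher). The labels give no batch that a replicate number marks, and same-numbered deviations over genes correlated by 0.012 in ependymal cells, 0.034 in cluster 37 and -0.034 in cluster 71, although *Ttr* was high in both replicate 2 libraries. Most genes tested were detected in under 25% of ependymal nuclei, so a low correlation does not show that the libraries are unpaired. With the replicate block 13 genes were called in ependymal cells, 6 higher and 7 lower. Among them were *Nr4a3* (adjusted p = 4.51e-06, edgeR), *Lhfpl3* (4.10e-05), *Btg2* (0.00211), *Plcb1* (0.00395), *Zbtb16* (0.0121) and *Aldh1a1* (0.0346). The block gave 0 calls in cluster 37, where *Plcb1* had 0.983, and 2 in cluster 71. In cluster 37 the 1 call became 0 with DESeq2, 0 with filterByExpr, 12 without a filter on genes, and 4 to 17 without 1 library. In cluster 71 the 2 calls became 1 with Holm adjustment, 0 without TMM, 0 with DESeq2, 0 with filterByExpr, 7 without a filter on genes, and 3 to 37 without 1 library, with 37 without control 1. The 22 genes of the difference from tanycyte-like cells became 10 with Holm adjustment, 0 with DESeq2, 3 with filterByExpr and 4 to 18 without 1 library; *Gpc5* ranged from -7.04 to 0.48 without 1 library and turned sign without control 1. The difference from astrocytes gave 0 calls, and 0 to 14 without 1 library, with 14 without AgRP-Gq;POMC-Gi 1. The cause of these changes was not tested; filterByExpr tests fewer genes in ependymal cells and their clusters.

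Among the single genes named, 584 values kept their direction and side of the threshold under the alternatives run, 111 no longer passed and 42 passed newly. Only a gene called in the main fit could stop passing, and a gene never called kept its side by staying uncalled. The first of these counts is therefore no measure of how stable the called genes were. All 9 ependymal markers stayed highest in ependymal nuclei after thinning, as mean log-normalised values and without any 1 library. The share of ependymal nuclei stayed higher in AgRP-Gq;POMC-Gi over nuclei other than neurons (0.45 percentage points) and over all barcodes (0.17), and the differences of both shares kept their sign without any 1 library.

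With 2 libraries a group, 76 nuclei or fewer in either control, and 17 to 52 nuclei per library in cluster 71, a gene that was not called is not shown to be unchanged. Genes with few UMIs per library carry the widest errors, and 1 nucleus can supply much of such a count. Libraries also differed in *Xist*. Leaving out AgRP-Gq;POMC-Gi 2 removes the library whose ependymal nuclei had no *Xist* UMI, but leaves 1 library in that group. No other setting here removes that difference. Choroid plexus content differed too, followed the replicate number and so is taken up by the replicate block alone. Fewer nuclei and less RNA per nucleus cannot be told apart in summed counts of a single gene.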

Other observations

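Among 4842 barcodes that did not pass the study's quality control, 22 (7, 4, 7 and 4 by library) had an axoneme share at or above 1.29%, the 5th percentile of annotated ependymal nuclei. Of these 22, 7 had under 800 UMIs, 1 had over 10% mitochondrial UMIs, and 15 were within the limits on UMIs, genes and mitochondrial share.

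Mitochondrial UMIs were more frequent in ependymal nuclei than in the other annotated types examined, with a median of 1.68% against 0.666% in choroid plexus, 0.525% in tanycyte-like nuclei and 0.0914% in neurons. There were 30 ependymal nuclei above 5%.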
